A study of Mus musculus with 50 samples.

Results

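Stop-codon peaks near the consensus motif are sites of m6A enrichment that the authors' peak table places around the stop codon of a transcript and within 50 nt of the table's consensus motif. The choice used only the position class and the motif distance, and no score. It took 5843 of the 32009 peaks in the table (18.3%) and 86.3% of the 6767 peaks around a stop codon. The remaining 924 stop-codon peaks lay farther from the motif, except 1 that had no motif distance. The 5843 peaks had 5843 different genome positions and lay on 4850 of the 14219 transcripts with a peak (34.1%).

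N6-methyladenosine (m6A) is a methyl mark placed on adenosines inside messenger RNA by a complex whose catalytic subunit is METTL3. The complex methylates adenosines within a short consensus sequence, and in mammalian messages the mark is known to concentrate around stop codons and in the 3' UTR. Reader proteins that bind the mark, among them YTHDF2 and the IGF2BP proteins, influence how long a message lasts and how it is translated. In m6A-seq, fragments that an m6A antibody pulls down (IP) are compared with the starting RNA (Input), and a site appears as a peak of fragments around it.

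The m6A data came from 12 of the 50 samples: mouse B cells after overnight LPS, with IP and Input libraries in 4 groups of 3. Activation by LPS, a bacterial cell wall component, drives B cells to proliferate. The genotypes were AIDcre Mettl3-flox/+ and AIDcre Mettl3-flox/flox, so both carried the AIDcre recombinase, which is expressed from the gene of the B cell enzyme AID, and differed in whether 1 or both copies of Mettl3 were floxed. The strain labels of these libraries count up from C57BL/7 to C57BL/18 and were not used. The remaining 38 samples were expression libraries of germinal center B cells and were not analysed here. How far METTL3 was lost from the flox/flox cells overnight was not measured here, and no label ties a replicate to a mouse of its own.

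Every peak carries 2 scores of the authors, one of an arm headed test and one of an arm headed control (the comparator arm below), and this in 2 score versions. A score is 1 pooled value per arm. No source used here states its formula, so values are in score units, and the replicate spread of a peak is unknown. The headers give no genotype. The authors' METTL3-dependent list is made of peaks with a higher test score, which is why the test arm is read here as flox/+ and the comparator arm as flox/flox. Per arm there is also a peak number from 0 to 3, taken here to count the replicates with a call. The transcript identifiers could not be paired with genes, so neither B cell marker genes nor gene groups could be examined. Positions are on mouse build mm9 as far as could be established, no sequence of that build was used, and the motif is not spelled out in the table.

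Within the window of 50 nt the number of peaks per nt rose toward the motif. Positions outside peaks were not examined, so how far arbitrary positions share this was not tested. The median distance, regardless of side, was 10 nt (quartiles 3 to 21 nt). At distance 0 lay 286 peaks (4.89%), more than at any other single distance when the sides of the motif are counted apart. In all, 2053 peaks (35.1%, exact Clopper-Pearson 95% interval 33.9% to 36.4%) lay within 5 nt. The number of peaks per nt of distance was 342 from 0 to 5 nt, 200.2 from 6 to 10 nt, 128 from 11 to 20 nt, 67.3 from 21 to 35 nt and 33.3 from 36 to 50 nt. Both sides were filled alike, with 2692 peaks at negative and 2865 at positive distances, the sign being the table's own. Intervals on shares cover counting error only, and peaks share libraries and often a transcript.

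**Figure D1:**
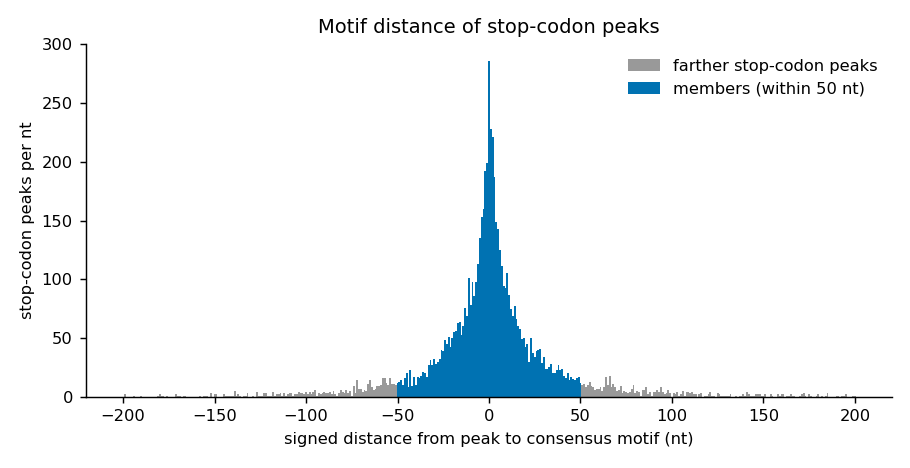
Number of stop-codon peaks at each signed distance, in nt, to the consensus motif, from -200 to 200 nt, with the 5843 peaks within 50 nt in blue and farther ones in grey. The counts rise to 286 at distance 0 and fall off on both sides, so that few peaks lie at the 50 nt limit.

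Of peaks within 50 nt of the motif, the share within 5 nt was lower in each of the 4 other transcript parts. The 3' UTR had 30.0% (28.7% to 31.4%), the coding sequence 28.1% (27.2% to 29.0%), the transcript start 16.3% (15.1% to 17.5%) and the 5' UTR 24.4% (21.5% to 27.5%). These intervals cover counting error only, so they do not test the difference from the 35.1% of the stop-codon peaks. No test of the difference was made, because peaks are not replicates. The median distances were 11 nt, 12 nt, 19 nt and 15 nt in the same order.

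Scores were higher in the test arm for most of these peaks. On version 1 the test arm had a median score of 2.51 (quartiles 1.88 to 3.31) and the comparator arm 1.86 (1.19 to 2.68). On version 2 the medians were 3.56 (2.60 to 4.28) and 2.56 (1.55 to 3.44). The scores of the 2 arms thus overlapped widely across peaks, and the contrast lies in the difference within each peak.

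The median difference, test minus comparator, was 0.65 on version 1 (95% interval over peaks 0.63 to 0.67) and 0.90 on version 2 (0.88 to 0.92). Over all peaks it was 0.25 and 0.49. For 3' UTR peaks within 50 nt of the motif it was 0.60 and 0.89, close to the values of the set. Stop-codon peaks farther from the motif had medians of 0.57 (0.48 to 0.62) and 0.74 (0.68 to 0.82). These intervals measure the spread between peaks, not between replicates. The test arm was the higher one for 4807 of the 5843 peaks on version 1 (82.3%) and for 5300 on version 2 (90.7%). These shares were 61.7% and 70.0% of all peaks, and 78.1% and 88.4% of 3' UTR peaks within 50 nt of the motif. The test arm was higher on both versions for 4600 (78.7%), against 54.5% of all peaks and 74.5% of those 3' UTR peaks. It was lower on both for 310 (5.31%), against 22.5% and 7.85%.

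Since the median of all peaks was itself above 0, the difference was also taken relative to that median. The median for stop-codon peaks near the motif was then 0.40 on version 1 and 0.41 on version 2. By this measure 71.4% of them on version 1 and 74.6% on version 2 lay above the median of all peaks. Whether the shift of all peaks comes from the genotype or from a scale that differs between the arms cannot be told apart with 1 pooled score per arm.

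**Figure D2:**
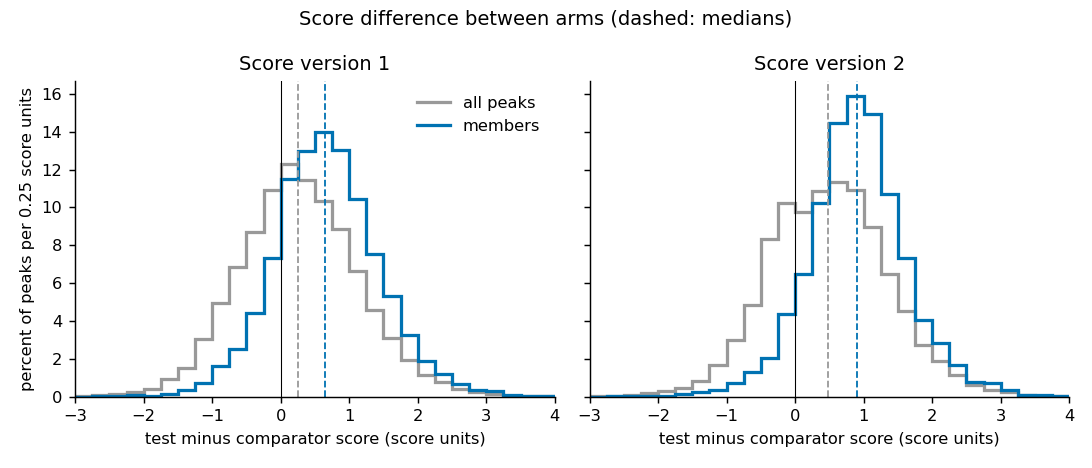
Distribution of the test minus comparator difference, in score units, on version 1 (left) and version 2 (right), as the percent of peaks per bin of 0.25 score units. The curve of the 5843 stop-codon peaks near the motif (blue, dashed median 0.65 and 0.90) lies to the right of that of all 32009 peaks (grey, dashed median 0.25 and 0.49).

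The authors' METTL3-dependent list held 2823 of the 5843 peaks (48.3%, 47.0% to 49.6%), against 28.1% of all peaks. They made up 31.3% of the list and lay on 2522 of the 4850 transcripts (52.0%). Over the whole table the list coincided with a rule of unadjusted p under 0.1 on either version and a higher test arm on either version, so it is a broad set rather than a corrected call. The opposite rule, with a higher comparator arm, took 246 of these peaks (4.21%), against 10.7% of all peaks. Because direction and p may come from different versions, 197 peaks met both rules. Of the stop-codon peaks farther from the motif 37.3% were listed (34.2% to 40.5%). Of peaks within 50 nt of the motif elsewhere, the list held 40.4% of 3' UTR peaks, 28.2% of coding-sequence peaks, 21.4% of 5' UTR peaks and 8.62% of transcript-start peaks.

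A narrower cut on the same p-values gave the same contrast of directions. Its peaks with a higher test arm are all in the list by the list's own rule. The cut is therefore no separate support for the list. By the p-values of the authors' deposited table, 1000 of 5815 peaks with a value (17.2%) had an unadjusted p under 0.05 and a higher test arm on version 1, against 8.18% of all peaks. Those with a higher comparator arm numbered 36 (0.619%), against 3.35%. In the authors' deposited table version 2 gave 1499 peaks (25.7%) higher in the test arm, against 12.9% of all peaks, and 8 (0.137%) higher in the comparator arm, against 2.01%. Both versions together gave 590 peaks higher in the test arm (10.1%, against 4.14% of all) and 1 higher in the comparator arm (0.0172%, against 0.515%). The 3' UTR peaks within 50 nt of the motif had the same contrast. By the same cut 13.1% of them were higher in the test arm on version 1 and 20.2% on version 2, and 0.590% and 0.218% in the comparator arm.

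No single peak passed correction. After Benjamini-Hochberg adjustment of the authors' p-values over all peaks, 0 of these peaks reached an adjusted p of 0.05, and the background was 0% on either version. The smallest adjusted p among them was 0.330 on version 1 and 0.219 on version 2. The counts above therefore describe the set and name no peak as changed.

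Replicate calls leaned the same way. At least 2 of the 3 test replicates called 2316 peaks (39.6%, 38.4% to 40.9%) and at least 2 comparator replicates called 1305 (22.3%, 21.3% to 23.4%). Over all peaks these shares were 29.4% and 24.1%. The lean was not particular to the set. It was 25.9% and 13.5% for 3' UTR peaks within 50 nt of the motif, and 16.9% and 9.52% for stop-codon peaks farther from it. More test than comparator replicates had a call for 2911 peaks (49.8%, against 38.0% of all peaks), fewer for 1043 (17.9%, against 29.3%), and the number was equal for 1889 (32.3%, against 32.7%). Depth per library was not available, and its part in the number of calls was not tested.

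The extremes were uneven. There were 272 peaks called in every test replicate and not in the comparator arm (4.66%, against 1.95% of all peaks), and 17 called in every comparator replicate and not in the test arm (0.291%, against 0.918%). All 6 replicates had a call for 566 peaks (9.69%, close to the 9.58% of all peaks), with version 1 medians of 3.85 for the test and 3.17 for the comparator arm. Without a call in either arm were 912 peaks (15.6%, against 15.9% of all peaks). The scores of those 912 were low, with version 1 medians of 1.63 and 1.07, and 36.8% of them were listed. The listed share of all peaks without a call was not taken.

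**Figure D3:**
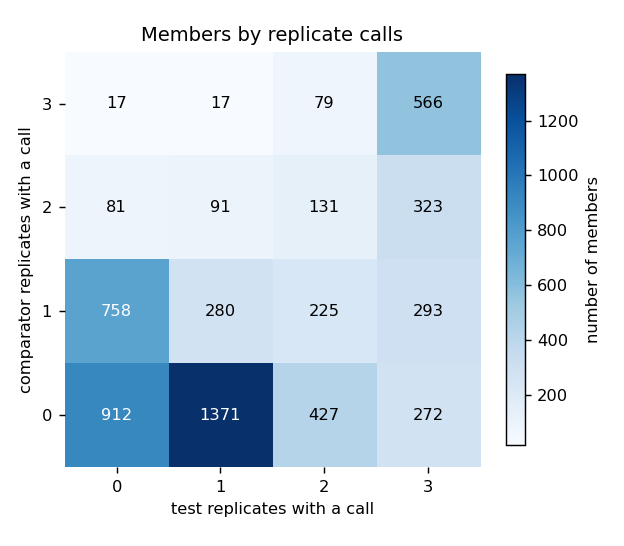
Number of stop-codon peaks near the motif for each combination of test replicates (0 to 3, horizontal) and comparator replicates (0 to 3, vertical) with a call. The counts below the diagonal exceed those above it, as in the corners with 272 and 17 peaks.

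The calls and the scores, which come from the same libraries, ran in parallel. The median version 1 difference was 1.28 for peaks called only in the test arm in all 3 replicates, 0.57 for those called in all 6 and 0.18 for the 17 called only in the comparator arm in all 3. Peaks called more often also lay closer to the motif: the median distance was 13 nt for peaks with no call, 10 nt with 2 calls in total and 6 nt with 6. The listed share rose from 36.8% with no call to 61.2% with 3 calls and 65.5% with 6, with 58.0% and 54.5% at 4 and 5 calls between. The median version 1 difference did not follow the same course, being 0.54 with no call, 0.80 with 3 and 0.57 with 6. These values by number of calls were not taken over all peaks, so they show no trait particular to the set.

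Distance to the motif went with the height and the number of calls of a peak, and less clearly with its difference between arms. The share called in at least 2 test replicates went from 49.5% within 5 nt (47.3% to 51.7%) to 43.6%, 36.1% and 29.0% in the next bins and to 21.8% between 36 and 50 nt (18.3% to 25.7%). In the comparator arm the shares went from 27.8% to 14.4%. The median version 1 test score was 2.61 within 5 nt and 2.25 between 36 and 50 nt, and the comparator score 1.98 and 1.61. Both arms were thus lower farther from the motif, by a similar amount. Calls and scores by distance were taken for this set only, so whether other peaks near the motif share the course was not tested.

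The difference between the arms stayed in a narrow band over these bins. On version 1 its median was 0.65 within 5 nt (0.61 to 0.69), 0.68, 0.66 and 0.60 in the next bins and 0.66 between 36 and 50 nt (0.54 to 0.75). On version 2 it went from 0.92 (0.88 to 0.95) to 0.84 (0.78 to 0.94). The intervals of the nearest and farthest bin overlapped on both versions. They are intervals over peaks, which are not replicates, so the overlap does not test whether the difference changes with distance. The listed share nevertheless fell from 55.9% (53.7% to 58.1%) to 48.3%, 44.5%, 41.6% and 40.4% (36.1% to 44.8%). At distance 0, 177 of 286 peaks were listed (61.9%, 56.0% to 67.5%), while their median differences of 0.59 and 0.87 were no larger than those of the set. Listed shares by distance were not taken over all peaks either, so the fall shows no trait particular to the set.

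**Figure D4:**
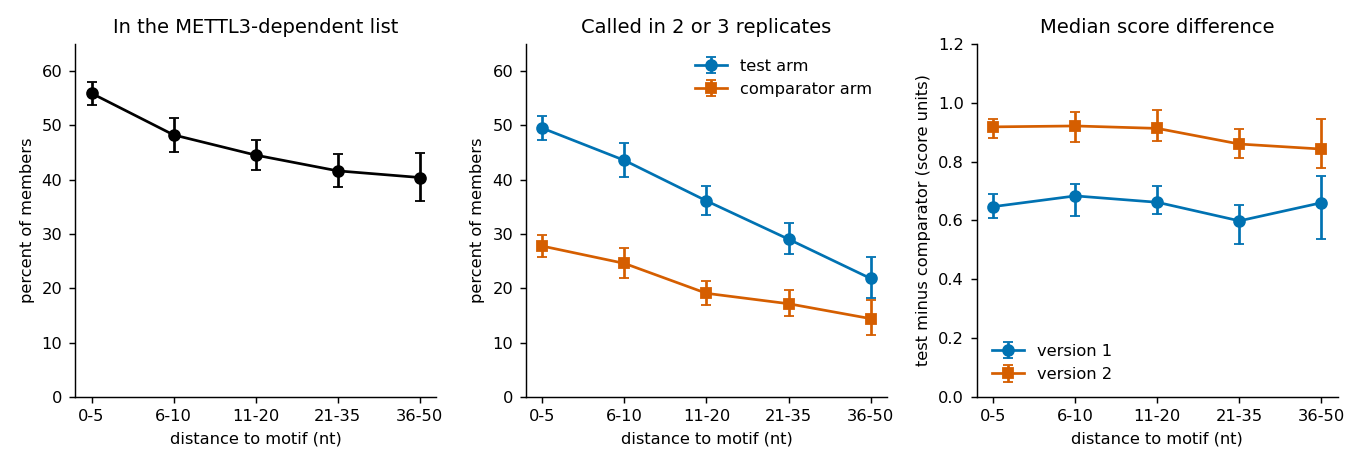
Share in the METTL3-dependent list (left), share called in 2 or 3 replicates of each arm (middle) and median test minus comparator difference in score units (right), by distance to the motif in nt, with 95% intervals (exact for shares, from order statistics over peaks for medians). Listed and called shares fall with distance, from 55.9% to 40.4% for the list, while the median difference stays between 0.60 and 0.68 on version 1 and between 0.84 and 0.92 on version 2. Only stop-codon peaks near the motif are shown, with no background of all peaks.

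Just inside and just outside the 50 nt limit the scores were similar. The listed share was higher outside in these narrow bands, which hold few peaks, and this was not tested. All stop-codon peaks farther from the motif had 37.3% listed, below the 48.3% of the set. The 139 peaks between 46 and 50 nt had median version 1 scores of 2.31 and 1.81, and 49 of them were listed (35.3%, 27.3% to 43.8%). The 110 stop-codon peaks between 51 and 55 nt, just outside, had scores of 2.13 and 1.70, and 52 of them were listed (47.3%, 37.7% to 57.0%). Median differences were 0.60 inside and 0.63 outside on version 1 and 0.80 and 0.81 on version 2.

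Listed and unlisted peaks of the set had version 1 comparator medians of 1.86 and 1.87 and test medians of 2.82 and 2.21. On version 2 the comparator medians were 2.40 and 2.69 and the test medians 3.69 and 3.42. The listed peaks were thus higher in the test arm on both versions, and lower in the comparator arm on version 2. The listed ones lay at a median of 8 nt from the motif (quartiles 3 to 18 nt) and the unlisted ones at 11 nt (4 to 23 nt). These values describe the list and do not support it, because the scores chose it.

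Position along the transcript, counted from its start, ran from 216 to 22210 nt with a median of 1755 nt. Divided by this position into 5 groups of nearly equal size, the peaks scored higher the farther along they lay on version 1: the median test score went from 2.20 in the group nearest the start to 2.77 in the farthest and the comparator score from 1.63 to 2.07. The version 2 test score lay between 3.43 and 3.63 in all 5 groups, with no such order. The difference went from 0.57 to 0.74 on version 1 and, in the opposite direction, from 0.94 to 0.86 on version 2. The listed share was 50.3% in the nearest group, 44.6% in group 4 and 48.9% in the farthest. The relation of the difference to position thus depended on the score version. Values by position were not taken over all peaks.

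Across the 19 autosomes and the X chromosome the median version 2 difference ranged from 0.78 on chromosome 10 to 1.00 on chromosome 5. The median version 1 difference ranged from 0.51 on chromosome 13 to 0.75 on chromosome 1 among the autosomes and was 0.91 for the 147 peaks on X. All peaks of the table on X had a median version 1 difference of 0.24, against 0.25 for the whole table, and a median version 2 difference of 0.32, against 0.49. On version 2 the X chromosome peaks of the set had a median of 0.96, inside the autosomal range. The listed share was lowest on chromosome 10, at 113 of 301 peaks (37.5%, 32.1% to 43.3%), and highest on chromosome 6, at 152 of 269 (56.5%, 50.4% to 62.5%). Over all peaks of the table chromosome 10 had 25.9% listed and chromosome 6 28.1%. Chromosome Y held 3 of the peaks.

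Of the 4850 transcripts, 3962 had 1 such peak, 788 had 2, 95 had 3 and 5 had 4. The paired peaks of the 788 transcripts lay a median of 98 nt apart (quartiles 69 to 147 nt), so fragments can span both. Both peaks were listed in 259 transcripts, 1 of them in 228 and none in 301. The peak nearer the transcript start was listed in 45.9% and the one nearer the 3' end in 48.7%. Both were higher in the test arm on version 1 in 618 transcripts, both not higher in 79, and they went opposite ways in 91.

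Across these 788 transcripts the version 1 differences of the 2 peaks had a Pearson r of 0.81 and a Spearman rho of 0.79, and the version 2 differences an r of 0.58 and a rho of 0.56. The 2 peaks share libraries, message and often fragments. For the 402 pairs under 100 nt apart r was 0.91 on version 1 and 0.75 on version 2, and for the 386 pairs farther apart 0.72 and 0.39. Transcripts with 3 or more of these peaks had 17.4% of them called in at least 2 test replicates and 35.7% listed, against 45.8% called and 49.7% listed where the transcript held 1. Their version 1 scores were not lower, with a median test score of 2.61 against 2.43. Shares by the number of peaks on a transcript were taken for this set only.

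Most of the transcripts carried further peaks, which allowed the stop-codon peak to be set beside others on the same message. Only 1013 transcripts (20.9%) had no other peak of any kind. A transcript-start peak was present on 2180 (44.9%), a coding-sequence peak on 1757 (36.2%), a 3' UTR peak on 1419 (29.3%), a 5' UTR peak beyond the start on 315 (6.49%) and a stop-codon peak farther from the motif on 289 (5.96%). Among the 3837 transcripts with several peaks, the highest score (mean of both arms, version 1) belonged to a stop-codon peak near the motif in 1627 (42.4%) and to a transcript-start peak in 1092 (28.5%). Below, the highest scoring peak of each part stands for that part. Peaks of the transcript start, the coding sequence and the UTRs were taken at any distance from the motif. Transcript part and motif distance therefore cannot be told apart in these comparisons.

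Beside the transcript-start peak the contrast within the message was wide. On the 2180 transcripts the median version 1 difference was 0.71 for the stop-codon peak and -0.38 for the start peak, and the median of the gap within a transcript was 1.10 (95% interval over transcripts 1.07 to 1.13). On version 2 the medians were 0.97 and -0.21, with a gap of 1.14 (1.10 to 1.18). The stop-codon peak had the larger difference in 1987 transcripts on version 1 (91.1%) and in 1974 on version 2 (90.6%). The order of the scores themselves changed between arms: the stop-codon peak outscored the start peak in 1294 transcripts in the test arm (59.4%) and in 645 in the comparator arm (29.6%). Of the 2180, 1109 had the stop-codon peak listed and not the start peak, 61 the reverse, 72 had both and 938 neither.

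Beside the coding sequence the gap was smaller and beside the 3' UTR it nearly closed. On 1757 transcripts the stop-codon peak had a median version 1 difference of 0.60 and the coding-sequence peak 0.21, with a gap of 0.32 (0.27 to 0.38) and a larger stop-codon difference in 64.6%. The version 2 medians there were 0.87 and 0.47, with a gap of 0.38 (0.33 to 0.44). On 1419 transcripts with a 3' UTR peak the version 1 medians were 0.62 and 0.54, with a gap of 0.05 (0.0019 to 0.0986). On version 2 that gap was 0.03 and its interval included 0 (-0.0070 to 0.0801). These intervals are over transcripts, which are not replicates, so they do not test whether a gap differs from 0. The stop-codon peak had the larger difference in 52.7% of these transcripts on version 1 and 52.2% on version 2.

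The 3' UTR peaks differed from their stop-codon neighbours more clearly in height than in the median difference between arms. The median version 1 test score was 2.93 for the stop-codon peak and 2.29 for the 3' UTR peak, and the comparator score 2.25 and 1.77. The stop-codon peak was the higher one in 966 of 1419 transcripts in the test arm (68.1%) and in 905 in the comparator arm (63.8%). The listed share also differed, with 672 stop-codon peaks (47.4%) and 540 3' UTR peaks (38.1%) in the list. Both peaks were listed in 320 transcripts, the stop-codon peak alone in 352, the 3' UTR peak alone in 220 and neither in 527. Stop-codon peaks farther from the motif, on 289 transcripts, gave gaps of 0.09 (0.03 to 0.17) on version 1 and 0.14 (0.05 to 0.23) on version 2. For the 315 transcripts with a 5' UTR peak the gaps were 0.68 (0.55 to 0.84) and 0.82 (0.69 to 0.92).

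**Figure D5:**
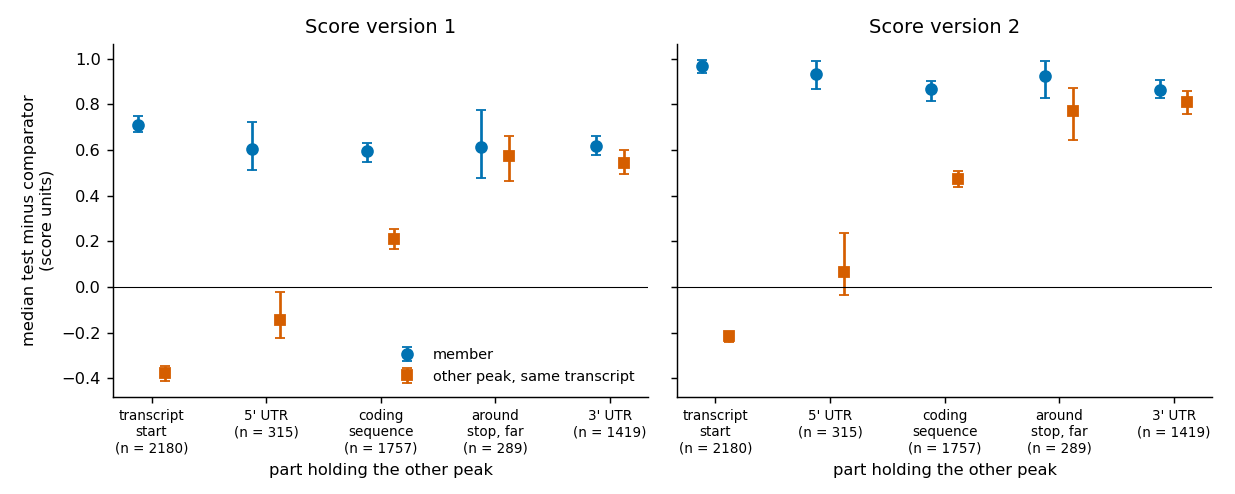
Median test minus comparator difference, in score units, of the stop-codon peak near the motif (blue circles) and of the highest scoring peak in another part of the same transcript (orange squares), on version 1 (left) and version 2 (right), with 95% intervals over transcripts. From the transcript start to the 3' UTR the other peak moves from -0.38 to 0.54 on version 1, where the stop-codon peak of the 3' UTR comparison lies at 0.62. Except for the farther stop-codon peaks, the other peaks were taken at any distance from the motif.

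Single peaks were named by a rule: an unadjusted p under 0.05 in the same direction on both versions and a call in at least 2 replicates of the higher arm. For the test arm 355 peaks met it (6.10%, against 2.08% of all peaks). For the comparator arm 0 did (against 0.351% of all peaks), and with p under 0.05 on either version and a lower test score on both 6 did (0.103%, against 2.61%). Without these conditions the version 1 differences of the set ran from -2.67 to 4.13. Of the 355, the largest version 1 difference in the authors' deposited table was on transcript uc008ryf.2, at chromosome 4 position 9380296 and 2 nt from the motif, with version 1 scores of 3.74 (test) and 0 (comparator) and an unadjusted p of 0.000538. Version 2 gave 4.51 and 1.38 there, with p = 0.00308 in the authors' deposited table. It was followed by uc008mkv.1, at chromosome 2 position 130997229 and 3 nt from the motif, with 3.63 and 0.33 on version 1 (p = 0.00689 in the authors' deposited table) and 4.57 and 1.07 on version 2 (p = 0.0260). Each was called in 2 test replicates and in 0 comparator replicates. A version 1 comparator score of exactly 0, as on uc008ryf.2, occurred in 130 of the 5843 peaks, and a test score of exactly 0 in 38. No source used here states what such a 0 stands for.

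Of the 6 peaks under the relaxed rule, the 2 with the most negative version 1 difference had version 2 scores that were nearly equal in the arms. In the authors' deposited table uc011xdi.1, at chromosome 10 position 42677713 and at -5 nt from the motif, had version 1 scores of 3.12 (test) and 4.64 (comparator), with an unadjusted p of 0.00412. Its version 2 scores were 4.59 and 4.63 (p = 0.930 in the authors' deposited table), and it was called in 3 test and 2 comparator replicates. The authors' deposited table gave uc007dvo.1, at chromosome 1 position 181555265 and at -6 nt from the motif, scores of 2.11 and 3.07 on version 1 (p = 0.00810) and of 4.78 and 4.82 on version 2 (p = 0.944). All 4 named peaks were chosen for their differences among the peaks that met these rules, and their adjusted p-values on version 1 lay between 0.353 and 0.358 after Benjamini-Hochberg adjustment.

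Some peaks lay close to a peak of another transcript. Of the 5843 peaks, 621 (10.6%) lay within 100 nt on the chromosome of a peak assigned to another transcript, and the table does not say how fragments were divided there. Within the transcript, the position headed as that in the best sample and the peak position used above differed by a median of 6 nt. They differed by up to 35 nt in 95% of the peaks, which is of the order of the distance bins used above.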

How the data were processed

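The table of all peaks and the METTL3-dependent list were used as deposited by the authors. The tools named in the submitters' processing notes are DESeq2, HTSeq, SAMtools 1.3.1, STAR and cutadapt, and the builds mm9 and mm10, with no role for any of them. The peak caller, the score formula and the test behind the p-values are stated in no source used here. Per the file headers, the deposited values are a peak score per arm, an unadjusted p-value and other fields (calls, motif distance, position in the transcript). Version 1 had no p-value for 28 of the 5843 peaks, which were left out of its counts.

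Differences were recomputed as test minus comparator score. List membership was matched by position and transcript. Positions of 164 peaks, 26 of them in the set described, ran past the ends of 7 GRCm38 chromosomes, so positions were taken as mm9. No transcript identifier matched the name tables (0 matches). The peaks, lists and comparisons were chosen with earlier results of these data known. The rule for named peaks took, among peaks with p under 0.05 in the same direction on both versions and at least 2 calls in the higher arm, the 2 largest and the 2 most negative version 1 differences, the latter with p under 0.05 on either version since 0 met the full rule. The gene and cell type marker lists it held could not be applied. No set test was made, since peaks are not replicates. Depth per library is unknown. Shares have exact Clopper-Pearson 95% intervals, medians order-statistic intervals. The counting and adjustment steps were tested on simulated data. Calculations used Python 3.11.15, numpy 2.4.6, pandas 2.3.3, scipy 1.17.1, statsmodels 0.14.6 and matplotlib 3.10.9.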

Additional observations from a re-analysis of the deposited data

How the results depend on the processing

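The median differences kept their sign under every alternative run; without chromosome X, with calls in at least 1 replicate required, and with distances of 25 nt or 100 nt, they stayed within the interval of the reported median. Centring on all peaks, without X and requiring a call were chosen after seeing the data. Centring gave 0.40 on version 1 and 0.41 on version 2. Keeping only scores above the median of all peaks left 3212 peaks, of which 53.5% were listed, with a version 2 median of 0.85, with 588 (version 1) and 911 (version 2) peaks higher in the test arm and 5 on version 2 higher in the comparator arm at p under 0.05, with 59.9% and 39.5% called in 2 replicates of the test and comparator arm, and with 38.1% within 5 nt of the motif. A 25 nt window gave 50.2% listed and 42.7% and 23.8% called; a 100 nt window gave 37.4% and 21.2% called. The highest peak of each transcript gave 46.2% and 26.2% called and 36.7% within 5 nt. Requiring a call gave 50.4% listed and 47.0% and 26.5% called. The score, distance, transcript and call settings were applied to the stop-codon peaks only. Their shares thus have no background of all peaks at the same setting and show no trait particular to this set.

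In place of the list, p under 0.05 took 17.2% on version 1 and 25.7% on version 2. At p under 0.01 the counts higher in the test arm were 257 and 435, and in the comparator arm 6 and 2. At p under 0.1 they were 1609 and 2273, and 83 and 22. Shares of all peaks at these cuts were not taken, so these counts show only how they move with the cut. Calls in all 3 replicates held for 24.9% (test) and 11.6% (comparator), and calls in at least 1 for 69.7% and 49.0%, against 17.7% and 13.3% and against 59.7% and 55.3% of all peaks. Leaving out peaks under 100 nt away gave 3.77% of transcripts with a farther stop-codon peak and 27.7% with a 3' UTR peak. The 4 named peaks have the same sign on both versions because the rules that named them required it, so this is no check of them. Scores are pooled, so leaving out a replicate was not possible. No paired analysis was possible because the table holds 1 value per arm and no value per replicate.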
